A study of Danio rerio with 57 samples.

Results

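The ERK pathway feedback and output genes described here are 10 zebrafish genes: the MAP kinase phosphatases dusp5 and dusp6, the Sprouty genes spry1, spry2 and spry4, the receptor-level inhibitor il17rd, the ETS transcription factors etv4, etv5a and etv5b, and the immediate early transcription factor egr1. They were chosen by name, 10 of the 32520 genes in the count table, with earlier results of these data known. Counts of members set beside shares of all genes are therefore descriptions and not tests. All 10 were found by symbol, and all 10 were among the 24246 genes that passed the filter on low counts. Their identifiers in the table were ENSDARG00000019307 (dusp5), ENSDARG00000070914 (dusp6), ENSDARG00000103985 (spry1), ENSDARG00000078308 (spry2), ENSDARG00000068732 (spry4), ENSDARG00000098359 (il17rd), ENSDARG00000018303 (etv4), ENSDARG00000069763 (etv5a), ENSDARG00000044511 (etv5b) and ENSDARG00000037421 (egr1).

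ERK is the last kinase of the cascade that runs from growth factor receptors, such as the FGF and VEGF receptors, through RAS, RAF and MEK. Active ERK raises the transcription of its own inhibitors: DUSP6 removes phosphate from ERK in the cytoplasm, DUSP5 does so in the nucleus, Sprouty proteins act between the receptor and RAF, and IL17RD (also called Sef) acts at the FGF receptor and on MEK. In the zebrafish embryo dusp6, spry4, il17rd and the etv4 and etv5 genes are transcribed where FGF signals are high, and EGR1 in many cell types is made within minutes of ERK activation. Sorafenib inhibits RAF kinases and the VEGF and PDGF receptors, and rotenone inhibits complex I of the mitochondrial respiratory chain.

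Each library was made from a pool of 20 whole wild-type embryos of the OBI/WIK strain, kept at 26 °C, and the controls received the solvent DMSO, which the treated embryos also received. In the late exposure scenario treatment began at 24 hours post fertilization (hpf), and embryos were sampled at 36, 48 and 96 hpf after 1.3 µM (C_low) or 2.4 µM (C_high) sorafenib, 25 nM (C_low) or 50 nM (C_high) rotenone, or DMSO. There were 3 libraries in each of these groups except DMSO at 48 hpf, which had 2. In the early exposure scenario embryos were exposed from shortly after fertilization and sampled at 96 hpf only, with 4 libraries for 2.4 µM sorafenib, 4 for 25 nM rotenone and 3 for DMSO. Within the late scenario age and length of exposure rose together, so the part of each cannot be told apart. Each library is a mixture of all tissues, so a lower count cannot be told apart between fewer cells that express a gene and less RNA per cell.

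The 55 libraries used held 20609990 to 86897183 counts assigned to genes, with a median of 42602706. Expression is given as counts scaled to library size as CPM scaled by TMM factors, and changes as log2 fold changes with their standard error (SE) from edgeR's quasi-likelihood test. A gene was called when its Benjamini-Hochberg adjusted p, over all 24246 genes, was under 0.05. Statements that groups did not overlap describe the pools and are not tests. The share of all genes without overlap was not counted. The 3 pools that follow stood apart from the other libraries of their groups: T16 (late sorafenib 2.4 µM at 36 hpf), T37 (late rotenone 50 nM at 36 hpf) and T49 (late rotenone 25 nM at 48 hpf), whose median absolute log2 deviations were 0.662, 0.482 and 0.357. The other pools of those groups were at 0.363 and 0.379 (T18 and T20), 0.269 and 0.283 (T38 and T40), and 0.229 and 0.212 (T47 and T50). The TMM factors of T16, T37 and T49 were 0.676, 0.657 and 0.798, the lowest of the 55 libraries. Over the members alone T49 deviated by 0.0888, less than T47 (0.13) and T50 (0.104). Library names are the tube numbers of the labels. The members' raw counts ran from 74, for egr1, to 10023, for dusp6, so no member rested on a handful of reads. Between the lowest and the highest of the 18 group means, egr1 spanned 17.3-fold, whereas the other 9 members spanned 1.32-fold (etv5a) to 2.70-fold (dusp5).

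**Figure D1:**
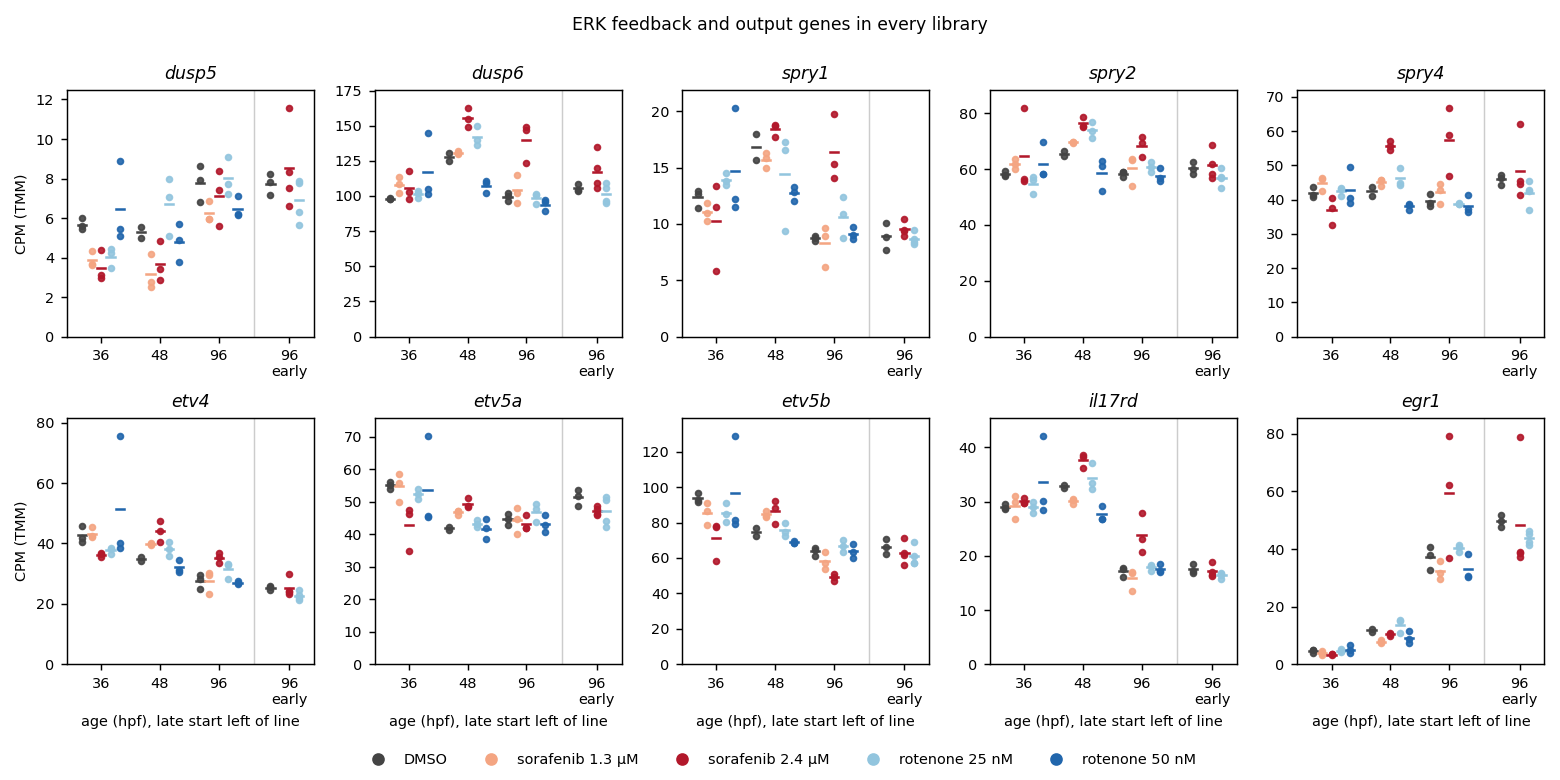
Levels of the 10 members in each of the 55 libraries, in CPM on linear axes from 0, by age in hpf (left of the line the late start, right of it the early start; points are libraries, short bars are group means, colors are treatments). The egr1 points climb from 3.30 CPM to 79.1 CPM over the groups. Library T37, a rotenone 50 nM pool at 36 hpf with a TMM factor of 0.657, is the highest of its group in every panel. On total counts it was not the highest in dusp6, spry2, spry4, il17rd or egr1.

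To place the changes with treatment, the course of the genes with age was taken first from the late DMSO controls. Of all genes tested, 33.8% were called between 36 and 48 hpf, 58.6% between 48 and 96 hpf and 72.5% between 36 and 96 hpf. Against these shares, 4, 6 and 7 of the 10 members were called, the first count being 2 without the 48 hpf pool T55. The steepest course was that of egr1. It measured 5.08, 4.91 and 3.86 CPM in the 3 pools of 36 hpf, 11.4 and 12.4 CPM in the pools of 48 hpf, and 37.8, 40.6 and 32.9 CPM in those of 96 hpf. No pool of one age overlapped with a pool of another, and egr1 rose 8.04-fold from 36 to 96 hpf (log2 fold change 3.01, SE 0.22, edgeR adjusted p = 5.45e-16). The nuclear phosphatase gene dusp5 rose as well, by 0.46 on the log2 scale over the same span (SE 0.21, edgeR adjusted p = 0.0433), a call that held under 2 of 13 alternatives. Over all genes the median change from 36 to 96 hpf was 0.131, so changes should be read against that value.

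The inhibitor genes dusp6, il17rd and spry1 had their highest DMSO values at 48 hpf, although of the rises from 36 to 48 hpf that of dusp6 alone was called. In the DMSO pools dusp6 measured 98.4, 97.8 and 97.8 CPM at 36 hpf, 125 and 131 CPM at 48 hpf, and 99.8, 102 and 96.7 CPM at 96 hpf. It therefore rose from 36 to 48 hpf (log2 fold change 0.38, edgeR adjusted p = 0.00323) and fell by 0.36 from 48 to 96 hpf (edgeR adjusted p = 0.00272), and at 96 hpf its range covered that of 36 hpf. For il17rd the 36 hpf pools measured 28.6, 29.6 and 28.8 CPM, the 48 hpf pools 32.5 and 33.0 CPM and the 96 hpf pools 17.8, 17.6 and 16.1 CPM. Its decline after 48 hpf was the one of lowest p among the members (log2 fold change -0.93, SE 0.11, edgeR adjusted p = 4.86e-10). The Sprouty gene spry1 showed the same order, with 11.4 to 12.95 CPM at 36 hpf, 15.7 and 18.0 CPM at 48 hpf and 8.53 to 8.89 CPM at 96 hpf, and fell by 0.95 from 48 to 96 hpf (edgeR adjusted p = 0.000183). The other Sprouty genes, spry2 and spry4, were called at none of the 3 steps, but this depended on the setting. Without T16, T37 and T49, which moved the median of all genes from 36 to 96 hpf by -0.158, both were called lower at 96 than at 36 hpf (spry2 -0.16, edgeR adjusted p = 0.0219, and spry4 -0.24, edgeR adjusted p = 0.0216). The step of spry2 from 48 to 96 hpf was also called without those pools (-0.28, edgeR adjusted p = 0.000535) and with the omitted DMSO library T51 added back (-0.24, edgeR adjusted p = 0.042). A fit of only the groups compared called spry2 at both steps (0.14 and -0.21) and spry4 from 36 to 96 hpf (-0.14). In the DMSO pools the group means of spry2 and spry4 stayed within 58.2 to 65.5 CPM and 39.6 to 42.5 CPM.

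The ETS factor genes declined with age. The mean of etv4 was 42.7 CPM ± 2.63 (SD, n = 3) at 36 hpf, 35.0 CPM ± 0.969 (SD, n = 2) at 48 hpf and 27.6 CPM ± 2.24 (SD, n = 3) at 96 hpf, and that of etv5b was 93.8 CPM ± 2.57, 74.7 CPM ± 3.23 and 63.8 CPM ± 2.22 at the same ages. From 36 to 96 hpf etv4 fell by 0.63 (edgeR adjusted p = 4.06e-05) and etv5b fell by 0.55 (edgeR adjusted p = 2.83e-05). The paralog etv5a fell only early, from 54.0 to 56.0 CPM at 36 hpf to 41.4 and 42.4 CPM at 48 hpf (log2 fold change -0.39, edgeR adjusted p = 0.008), and the step from 48 to 96 hpf was not called (0.09, edgeR adjusted p = 0.516). Proliferation genes moved with age in the same libraries: the summed level of the 13 that were matched ran from 4910 to 4989 CPM at 36 hpf, 3393 to 3539 CPM at 48 hpf and 943 to 963 CPM at 96 hpf. Their part in the members' course was not tested.

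**Figure D2:**
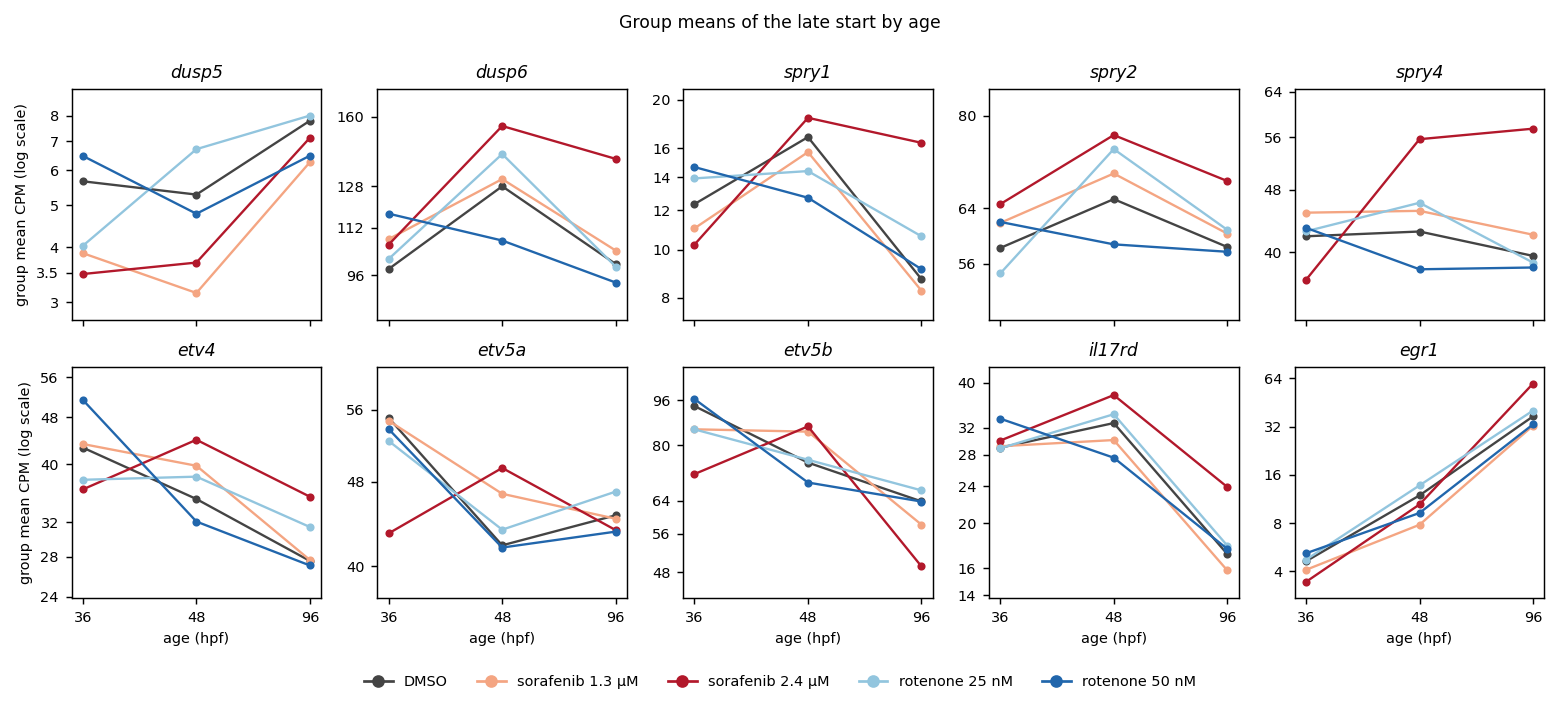
Group means of the 10 members in the 5 late-start treatments at 36, 48 and 96 hpf, in CPM on log axes (ages are evenly spaced and not to scale, colors are treatments, and no error is drawn). In the DMSO lines egr1 rises at each age, dusp6, spry1 and il17rd are highest at 48 hpf, and etv4 and etv5b decline.

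Late sorafenib at C_high gave the clearest response, and it was seen at 96 hpf. Of the 10 members, 6 rose and 1 fell, where 19.9% of all genes were called, 7.11% of them upward and 12.8% downward. The median log2 fold change was 0.42 over the 10 members and -0.07 over all genes tested. The genes that rose were spry1, egr1, spry4, dusp6, il17rd and etv4, and the gene that fell was etv5b. These pools had been exposed for 72 h.

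Among the Sprouty genes, spry1 moved furthest. It measured 8.89, 8.75 and 8.53 CPM in the DMSO pools (T76, T77 and T78) and 14.1, 15.3 and 19.8 CPM in the sorafenib pools (T66, T69 and T70). Every sorafenib pool lay above every DMSO pool, by 1.88-fold on average (log2 fold change 0.91, SE 0.19, edgeR adjusted p = 0.000471). The levels of spry4 were 41.6, 38.9 and 38.2 CPM with DMSO and 46.9, 58.8 and 66.6 CPM with sorafenib. These groups did not overlap either, and spry4 rose 1.45-fold (log2 fold change 0.54, SE 0.10, edgeR adjusted p = 0.000142). The third Sprouty gene, spry2, measured 59.1, 58.8 and 57.1 CPM with DMSO against 64.2, 71.5 and 69.4 CPM with sorafenib, without overlap, yet its change of 0.23 was not called (95% interval 0.05 to 0.41, edgeR adjusted p = 0.0731).

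The cytoplasmic ERK phosphatase gene dusp6 and the receptor-level inhibitor gene il17rd rose by similar factors. For dusp6 the DMSO pools measured 99.8, 102 and 96.7 CPM and the sorafenib pools 123, 147 and 149 CPM, and dusp6 rose 1.404-fold (log2 fold change 0.49, SE 0.09, edgeR adjusted p = 0.000113). For il17rd the values were 17.8, 17.6 and 16.1 CPM with DMSO and 20.7, 23.2 and 27.9 CPM with sorafenib, a rise of 1.39-fold (log2 fold change 0.48, SE 0.10, edgeR adjusted p = 0.000297). In both genes every sorafenib pool was above every DMSO pool. The nuclear phosphatase gene dusp5 did not follow: it measured 8.66, 7.92 and 6.79 CPM with DMSO and 5.60, 7.42 and 8.36 CPM with sorafenib, and the overlapping groups gave a log2 fold change of -0.13 (95% interval -0.53 to 0.27, edgeR adjusted p = 0.724).

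The ETS genes went in different directions. The etv4 pools measured 29.5, 28.1 and 25.1 CPM with DMSO and 35.5, 33.4 and 37.0 CPM with sorafenib, and etv4 rose 1.28-fold (log2 fold change 0.36, SE 0.13, edgeR adjusted p = 0.0469). That call is marginal, since it held under 4 of 13 alternative settings only, with adjusted p-values from 2.07e-05 to 0.189. The paralog etv5b measured 64.5, 65.7 and 61.4 CPM with DMSO and 50.9, 47.1 and 49.4 CPM with sorafenib. All sorafenib pools were lower, and etv5b fell by 0.38 on the log2 scale, to 0.769 of the DMSO level (SE 0.11, edgeR adjusted p = 0.0124), with the call lost without T69 (edgeR adjusted p = 0.0625). The values of etv5a, 46.2, 44.8 and 43.0 CPM with DMSO and 42.0, 41.8 and 45.9 CPM with sorafenib, overlapped (log2 fold change -0.05, 95% interval -0.25 to 0.16).

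The immediate early gene egr1 rose 1.60-fold but unevenly. It measured 37.8, 40.6 and 32.9 CPM with DMSO and 37.0, 62.2 and 79.1 CPM with sorafenib, so that T66 lay within the DMSO range while T69 and T70 were above it (log2 fold change 0.68, SE 0.20, edgeR adjusted p = 0.0116). Without T70 the change was 0.42 and was not called (edgeR adjusted p = 0.214), and the call was also lost without the DMSO pool T78. The pools T66, T69 and T70 kept this order in spry1, spry4, dusp6 and il17rd, with T66 nearest to the DMSO pools in each. The calls of dusp6, spry1, spry4 and il17rd held under all 13 alternatives, those of egr1 under 11 and of etv5b under 12.

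**Figure D3:**
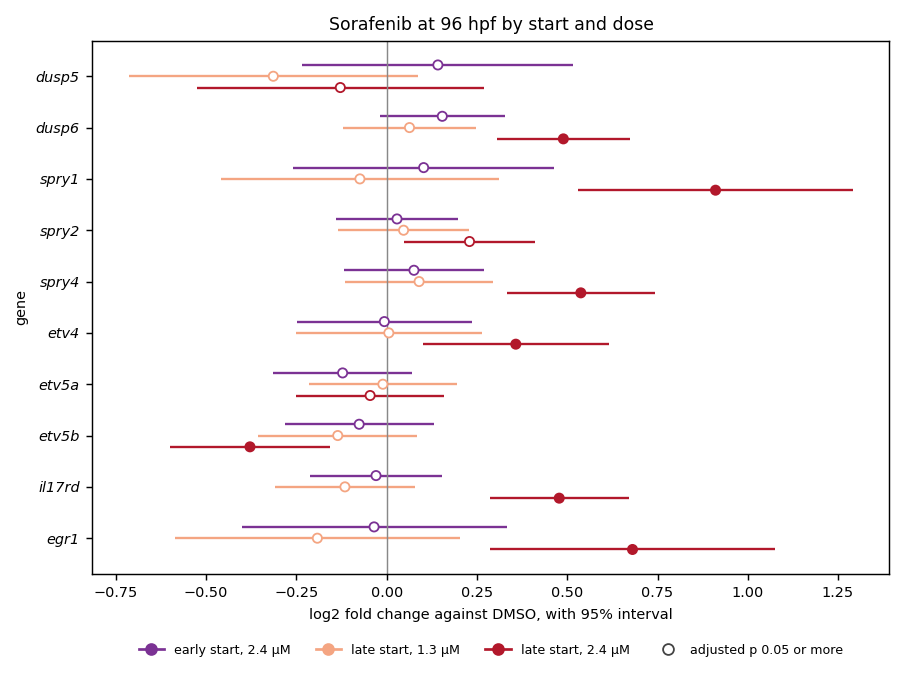
Log2 fold change of the 10 members against DMSO at 96 hpf with 95% intervals, for early 2.4 µM, late 1.3 µM and late 2.4 µM sorafenib (filled points have an adjusted p under 0.05). Filled points are seen at late 2.4 µM only, to the right of 0 for spry1, egr1, spry4, dusp6, il17rd and etv4 and to the left, at -0.38, for etv5b.

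At C_low the same genes were not called. After 1.3 µM sorafenib 0.0206% of all genes were called at 96 hpf and none of the 10 members, with 0 members at an unadjusted p under 0.05 and 0 called by DESeq2. The values of spry1 were 6.19, 8.95 and 9.68 CPM, those of dusp6 94.9, 115 and 102 CPM, and those of egr1 29.8, 31.6 and 36.0 CPM, each overlapping with the DMSO pools. Between the doses, 16.3% of all genes were called at 96 hpf, and 5 of 10 members were higher at 2.4 µM than at 1.3 µM. These were spry1 (log2 difference 0.98, edgeR adjusted p = 0.000243), egr1 (0.87, edgeR adjusted p = 0.00157), il17rd (0.59, edgeR adjusted p = 1.83e-05), spry4 (0.45, edgeR adjusted p = 0.00182) and dusp6 (0.43, edgeR adjusted p = 0.00093). Leaving out T70 brought the number of members called to 3. Leaving out T16, T37 and T49 brought it to 8, among them etv5b, which was lower at 2.4 µM (-0.19, edgeR adjusted p = 0.0401). The difference in etv4, 0.35, was not called (edgeR adjusted p = 0.0601).

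At the earlier ages of the late scenario few members were called. At 36 hpf, after 12 h with 2.4 µM sorafenib, 2.23% of all genes were called and 1 member, etv5b. It measured 91.8, 96.7 and 92.9 CPM with DMSO and 58.5, 77.8 and 77.5 CPM with sorafenib, and fell by 0.39 (SE 0.11, edgeR adjusted p = 0.0499). The lowest value was T16, one of the pools that stood apart, and the call was lost without T16 and also without any 1 of the DMSO pools T28, T29 and T30. The number of members called was 2 without T18 or without T20. Without T16, T37 and T49 together etv5b was called (-0.33, edgeR adjusted p = 0.00553). The etv5b call held under 6 of 13 alternatives, with the change between -0.47 and -0.27.

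The nuclear phosphatase gene dusp5 measured 5.99, 5.59 and 5.42 CPM with DMSO at 36 hpf and 4.36, 3.11 and 2.97 CPM with 2.4 µM sorafenib. The groups did not overlap, but the change of -0.72 was not called (SE 0.22, edgeR adjusted p = 0.0657). It was called without T16, without T16, T37 and T49, and by DESeq2. For etv5a the pools were at 55.1, 56.0 and 54.0 CPM with DMSO and 35.0, 47.6 and 46.3 CPM with sorafenib, again without overlap and without a call (log2 fold change -0.36, edgeR adjusted p = 0.0587). Some alternatives called etv5a: without T18 (edgeR adjusted p = 0.0156), without T20 (edgeR adjusted p = 0.0165) and with T51 added back (edgeR adjusted p = 0.0494). It was also called without T16, T37 and T49 together (edgeR adjusted p = 0.00829). In T16 spry1 was at 5.80 CPM and spry2 at 81.7 CPM, while T18 and T20 held 13.4 and 11.5 CPM of spry1 and 56.6 and 55.7 CPM of spry2. The TMM factor of T16 was 0.676. On total counts spry2 was at 55.25 CPM in T16 and at 55.54 and 55.6 CPM in T18 and T20. For spry1 the values on total counts were 3.92, 13.13 and 11.5 CPM. The same 36 hpf comparison showed higher muscle and blood transcripts, with pvalb1 (1.28), pvalb2 (1.09) and hbae3 (1.101 on the log2 scale) called. The pools were uneven in both lists. Summed muscle markers ran from 22530 to 39700 CPM with sorafenib and from 20850 to 24090 CPM with DMSO. Erythroid markers ran from 2342 to 7895 CPM and from 2046 to 2388 CPM. In both the lowest sorafenib pool lay within the DMSO range. The part of these transcripts in the members' values was not tested.

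At 48 hpf no member was called after 2.4 µM sorafenib, where 0.404% of all genes were called (0 members by DESeq2). An unadjusted p under 0.05 was found for 6 of 10 members and for 5% of all genes. Of the members 8 of 10 had a positive change, while 50.7% of all genes were lower. The lowest p was that of spry4, which measured 41.2 and 43.8 CPM with DMSO and 55.7, 57.0 and 54.4 CPM with sorafenib (log2 fold change 0.39, unadjusted p = 0.00202, edgeR adjusted p = 0.215). For dusp6 the sorafenib pools held 162, 155 and 149 CPM against 125 and 131 CPM in the DMSO pools (log2 fold change 0.28, edgeR adjusted p = 0.563). Neither gene overlapped between its groups, of which DMSO had only 2 pools. In contrast dusp5 was lower, at 2.87, 3.40 and 4.82 CPM against 5.01 and 5.56 CPM (log2 fold change -0.51, edgeR adjusted p = 0.917).

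After 1.3 µM sorafenib 0.0454% of all genes were called at 36 hpf and 0.181% at 48 hpf, and no member at either age (1 and 2 members at an unadjusted p under 0.05, 0 and 0 by DESeq2). Of all genes, 3.52% and 4.15% had an unadjusted p under 0.05. The gene dusp5 again had the lowest values, 4.31, 3.69 and 3.64 CPM at 36 hpf and 4.16, 2.77 and 2.52 CPM at 48 hpf, below all DMSO pools of the same age (log2 fold changes -0.55 and -0.75, edgeR adjusted p = 1 and 0.432). At 48 hpf egr1 measured 8.40, 7.33 and 7.68 CPM against 11.4 and 12.4 CPM with DMSO (log2 fold change -0.61, edgeR adjusted p = 0.811). With the omitted DMSO library T51 added back, egr1 was just called (log2 fold change -0.81, edgeR adjusted p = 0.0489). Between the 2 doses of sorafenib 0.705% of all genes were called at 36 hpf and 0.00412% at 48 hpf, with 0 and 0 members called (3 and 3 at an unadjusted p under 0.05, 0 and 0 by DESeq2), and at 36 hpf 1 without T18 or without T20. Of all genes, 16% and 3.23% had an unadjusted p under 0.05 in these comparisons. All 10 members were higher at 2.4 than at 1.3 µM at 48 hpf, by 0.03 to 0.42 on the log2 scale, while 50.2% of all genes were lower.

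Whether the change with 2.4 µM sorafenib itself differed between ages was tested as the difference of the changes. From 36 to 96 hpf this difference was called for 12.5% of all genes and for 5 of 10 members: spry1 (1.17, SE 0.28, edgeR adjusted p = 0.00353), egr1 (1.104, SE 0.31, edgeR adjusted p = 0.0149), spry4 (0.72, SE 0.15, edgeR adjusted p = 0.00091), etv4 (0.59, SE 0.19, edgeR adjusted p = 0.0296) and il17rd (0.43, SE 0.14, edgeR adjusted p = 0.0359). For spry4 and egr1 the change at 36 hpf was below 0 (-0.18 and -0.42, neither called) and at 96 hpf above 0. The 36 hpf mean with sorafenib was also below that with DMSO for spry1 (10.24 against 12.35 CPM) and etv4 (36.33 against 42.69 CPM). For il17rd it was not (30.06 against 29.02 CPM). The low values at 36 hpf therefore enter these differences. The etv5b change was alike at both ages (-0.39 and -0.38), with a difference of 0.02 (95% interval -0.30 to 0.33). The count of 5 dropped to 2 without T70 and to 3 without T30 or T78, and reached 6 without T66 and 9 without T16, T37 and T49. Between 36 and 48 hpf the difference was called for 0.0165% of all genes and for no member (4 at an unadjusted p under 0.05, 0 by DESeq2), and for 1 without T20. Of all genes, 9.23% had an unadjusted p under 0.05 there. For 1.3 µM sorafenib the difference between 36 and 96 hpf was called for 0% of all genes and for no member (0 at an unadjusted p under 0.05, 0 by DESeq2).

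**Figure D4:**
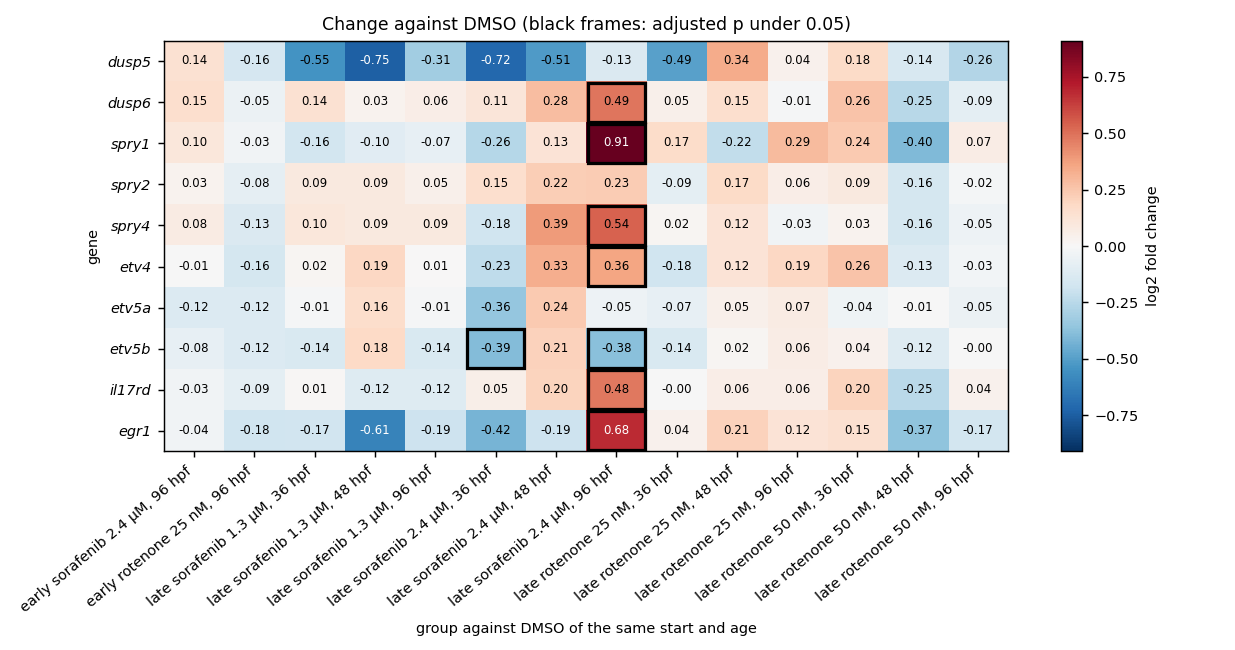
Log2 fold change of the 10 members against the DMSO group of the same start and age in the 14 treated groups, as a color scale from lower (blue) to higher (red) with the value in each cell. The framed cells, with an adjusted p under 0.05, are etv5b at 36 hpf and 7 members at 96 hpf, all after late sorafenib at 2.4 µM.

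The early scenario asked whether the same dose had the same effect when exposure began soon after fertilization. At 96 hpf after early 2.4 µM sorafenib 0.0289% of all genes were called and none of the members (0 at an unadjusted p under 0.05, 0 by DESeq2), and their changes ran from -0.12 to 0.15. For dusp6 the pools T1 to T4 measured 134.5, 120, 109 and 105.5 CPM against 104, 104 and 108 CPM with DMSO. The spry4 pools measured 61.9, 44.7, 45.3 and 41.5 CPM against 47.1, 44.4 and 46.3 CPM, and the egr1 pools 78.8, 39.1, 37.2 and 38.6 CPM against 51.7, 49.8 and 47.6 CPM. In dusp5, dusp6, spry4, il17rd and egr1 the pool T1 was the highest of the 4, and in egr1 the other 3 pools were below every DMSO pool. The summed level of 21 immediate early genes ran from 644 to 1063 CPM in the early sorafenib pools and from 707 to 722 CPM in the early DMSO pools.

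The change with sorafenib at 96 hpf differed between the scenarios for 8.03% of all genes and for 2 of 10 members, il17rd (early minus late -0.51, SE 0.14, edgeR adjusted p = 0.0115) and spry4 (-0.46, SE 0.14, edgeR adjusted p = 0.035). For spry1 the difference was -0.81 (95% interval -1.33 to -0.29, edgeR adjusted p = 0.051), for egr1 -0.72 (-1.25 to -0.18, edgeR adjusted p = 0.106) and for dusp6 -0.34 (-0.59 to -0.08, edgeR adjusted p = 0.107). Without T70 no member was called, without T66 5 were, without T1 4 were, and without T16, T37 and T49 7 were. Leaving out T12, T13, T77, T78, T2, T3, T4 or T69 left 1, il17rd. The DMSO groups of the 2 scenarios at 96 hpf differed in 0.458% of all genes and in no member (0 by DESeq2). An unadjusted p under 0.05 was found for 2 members and for 8.22% of all genes. In these groups egr1 was at 47.6 to 51.7 CPM in the early pools and 32.9 to 40.6 CPM in the late pools (log2 difference 0.42, edgeR adjusted p = 0.57). The spry4 pools held 44.4 to 47.1 CPM in the early and 38.2 to 41.6 CPM in the late DMSO group, also without overlap. Those of il17rd overlapped, at 16.9 to 18.5 and 16.1 to 17.8 CPM. The gaps of egr1 and spry4 enter their differences above, because each change was taken against its own controls.

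Rotenone moved the members little. Against DMSO no member was called in any of the 7 rotenone groups, and few genes were: 0% for early 25 nM, and for the late scenario 0.0866%, 0% and 0% at 36, 48 and 96 hpf for 25 nM and 0.396%, 0.0866% and 0.00412% for 50 nM. At an unadjusted p under 0.05 the members numbered 0 in the early group, 1, 0 and 0 at 25 nM and 2, 2 and 0 at 50 nM, and DESeq2 called 0 in each. Of all genes, 8.28% passed that cutoff at 36 hpf with 25 nM, and 14.9% and 6.5% at 36 and 48 hpf with 50 nM. For 50 nM at 36 hpf leaving out T38 gave 1 call and leaving out T40 gave 2. After early rotenone all 10 members were lower, by 0.03 to 0.18 on the log2 scale, as were 54.1% of all genes. At 48 hpf all 10 were also lower after 50 nM, from -0.41 (spry1) to -0.01 (etv5a), as were 51.5% of all genes. There dusp6 measured 109, 111 and 102 CPM against 125 and 131 CPM with DMSO (log2 fold change -0.25, edgeR adjusted p = 0.598), and il17rd 26.9, 29.2 and 26.8 CPM against 32.5 and 33.0 CPM (log2 fold change -0.25, edgeR adjusted p = 0.649). Neither gene overlapped between these groups, of which DMSO had only 2 pools.

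The 36 hpf values with 50 nM rotenone turned on one pool. T37 held 145 CPM of dusp6, 75.5 CPM of etv4, 129 CPM of etv5b and 8.89 CPM of dusp5, while T38 and T40 held 105 and 102, 40.0 and 38.6, 81.5 and 79.4, and 5.09 and 5.44 CPM. It was the highest of its group in all 10 members on this scale, with a TMM factor of 0.657 against 0.964 and 0.958 in T38 and T40. On total counts T37 held 95.24 CPM of dusp6 and 45.71 CPM of spry2, below T38 (101.2 and 56.14) and T40 (97.25 and 55.69). It was also below T38 in spry4 (32.53 against 39.01 CPM), il17rd (27.62 against 29 CPM) and egr1 (4.342 against 4.72 CPM). In etv4 it stayed the highest on total counts, at 49.6 CPM against 38.55 and 36.95 CPM. The same held in dusp5, spry1, etv5a and etv5b. Between the rotenone doses 5.61% of all genes were called at 36 hpf and 1 member, etv4 (log2 difference 0.44, SE 0.13, edgeR adjusted p = 0.0393), a call that was lost without T37 and without any 1 of the 25 nM pools T21, T23 and T24. The number of members called was 2 without T38 and 4 without T40. At 48 hpf 2.67% of all genes and 2 members were called: dusp6 was lower at 50 than at 25 nM (136 to 150 CPM at 25 nM, log2 difference -0.40, edgeR adjusted p = 0.017), and so was spry2 (52.2 to 62.8 against 71.1 to 76.96 CPM, log2 difference -0.33, edgeR adjusted p = 0.0406). Without T49 alone the differences were about as large, -0.41 for dusp6 and -0.30 for spry2, but not called (edgeR adjusted p = 0.0685 and 0.245). Without T16, T37 and T49 both were called (-0.44 and -0.33, edgeR adjusted p = 0.000841 and 0.00386). The spry2 call was lost without any 1 of the 6 pools. At 96 hpf 0.0701% of all genes and no member were called (0 at an unadjusted p under 0.05, 0 by DESeq2). The change with rotenone differed between the early and late start in 0% of all genes, and between 36 and 96 hpf at 50 nM in 0.0371%, with no member called in either (0 and 1 at an unadjusted p under 0.05, 0 and 0 by DESeq2). Of all genes, 1.3% and 8.67% had an unadjusted p under 0.05 in these tests.

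Set side by side at their high concentrations, which differ in amount and cannot be matched, sorafenib and rotenone left the members at different levels. At 96 hpf 19.2% of all genes and 7 members were called between late 2.4 µM sorafenib and late 50 nM rotenone: egr1 (0.85), spry1 (0.84), spry4 (0.59), dusp6 (0.57), il17rd (0.44) and etv4 (0.38) were higher with sorafenib and etv5b (-0.38) lower. At 48 hpf no member was called for either substance against DMSO, which had only 2 pools. Between the substances, with 3 pools each, 1.97% of all genes and 4 members were called. These were spry4 (0.55), dusp6 (0.53), il17rd (0.45) and spry2 (0.38), all higher with sorafenib. The dusp6 pools held 149 to 162 CPM with sorafenib and 102 to 111 CPM with rotenone, and the spry4 pools 54.4 to 57.0 CPM and 37.1 to 38.7 CPM. The spry2 call at 48 hpf held under 6 of 13 alternatives, and those of spry4, dusp6 and il17rd under all 13. At 96 hpf the etv4 call held under 6 of 13, that of etv5b under 11 and that of egr1 under 12. Those of spry1, spry4, dusp6 and il17rd held under all 13. At 36 hpf 9.56% of all genes and 4 members were called, with dusp5 (-0.90), etv4 (-0.49), etv5b (-0.43) and etv5a (-0.32) lower with sorafenib, and none of these without T37. Without T16 2 members were called. Early 2.4 µM sorafenib and early 25 nM rotenone differed in 0.0124% of all genes and in no member (2 at an unadjusted p under 0.05, 0 by DESeq2). That unadjusted cutoff was passed by 3.75% of all genes.

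Other genes of the pathway were read from lists of FGF ligands, FGF receptors, the RAS to ERK cascade, further feedback and output genes, and immediate early genes. Against DMSO, calls outside late 2.4 µM sorafenib at 96 hpf were few and all in immediate early genes: ccn1l1, a secreted matricellular protein gene, rose at 36 hpf after 1.3 µM (1.16) and 2.4 µM (1.16) sorafenib, mcl1b (0.90) and nr4a1 (0.49) rose after 2.4 µM at 36 hpf, fosl2 (0.74) rose after 2.4 µM at 48 hpf, and ccn1 fell by 0.96 after 50 nM rotenone at 48 hpf.

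At 96 hpf after late 2.4 µM sorafenib, 14 of the 21 immediate early genes rose and none fell, with a median log2 fold change of 0.85 over the list. The 4 of lowest p were egr2a (2.75, edgeR adjusted p = 4.21e-08), ccn1 (1.31), jun (1.03) and fosl2 (0.95), the last a FOS family partner of JUN. Of 13 further feedback and output genes, 3 rose and 2 fell, beside 7.11% and 12.8% of all genes. The stress- and growth factor-induced phosphatase gene dusp1 rose by 1.28 (SE 0.15, edgeR adjusted p = 1.09e-08) and the nuclear phosphatase gene dusp4 by 0.77 (edgeR adjusted p = 0.00164), whereas the Sprouty-related spred3 fell by 0.48 (edgeR adjusted p = 0.000293) and the ETS gene etv1 fell by 0.55 (edgeR adjusted p = 0.00187).

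All 4 of the matched FGF receptor genes rose: fgfr3 (0.42), fgfr4 (0.39), fgfr2 (0.33) and fgfrl1b (0.32), the last coding for a receptor without a kinase domain. Their summed level was 314 to 325 CPM in the DMSO pools and 394 to 432 CPM in the sorafenib pools. Of 14 FGF ligand genes only fgf17 was called (0.74, edgeR adjusted p = 0.0256). Of the 17 cascade genes none rose, and ptpn11b (-1.096, edgeR adjusted p = 0.000909), coding for a SHP2 phosphatase, and grb2b (-0.30, edgeR adjusted p = 0.00592), coding for the adaptor that brings SOS to receptors, fell. In this comparison 7.11% of all genes were called upward and 12.8% downward, so the ligand and cascade counts lie near the shares of all genes. The cascade list holds targets that sorafenib acts on as proteins, which these counts do not measure.

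**Figure D5:**
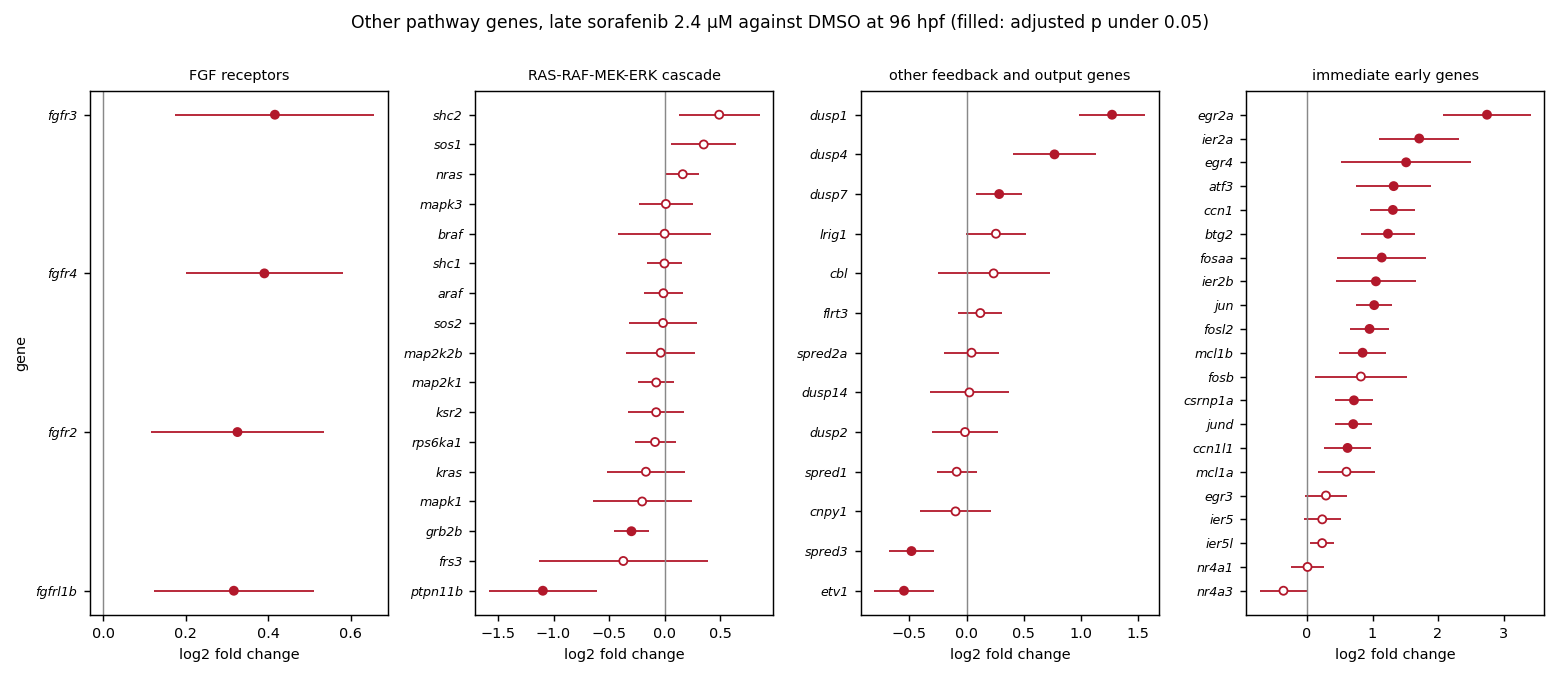
Log2 fold change with 95% intervals at 96 hpf after late 2.4 µM sorafenib for the genes of 4 pathway lists (each panel has its own scale, and filled points have an adjusted p under 0.05). All 4 of the matched FGF receptors and most immediate early genes lie to the right of 0. The cascade genes lie around 0 with ptpn11b at -1.096.

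Markers of several cell types moved in the same libraries. At 96 hpf after late 2.4 µM sorafenib all 9 photoreceptor markers fell, with a median of -2.44, led by opn1sw2 (-2.91), pde6c (-2.75) and gnat1 (-2.38). Their summed level was 3803 to 4480 CPM in the DMSO pools and 1170, 570 and 383 CPM in T66, T69 and T70, none of the markers being at 0. The immediate early genes summed to 657 to 715 CPM with DMSO and to 883, 1289 and 1369 CPM in T66, T69 and T70, the order in which egr1, spry1, spry4, dusp6 and il17rd also rose. The part of either in the members' changes was not tested.

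Endothelial markers, which belong to the vessels that sorafenib is known to act on, fell in each of the 7 sorafenib groups, in different numbers. After 2.4 µM sorafenib 7, 8 and 5 of 17 fell at 36, 48 and 96 hpf, after 1.3 µM 4, 7 and 1 fell, after early sorafenib rasip1 alone fell (-0.77), and none was called after rotenone. Of all genes, 0.532%, 0.206% and 12.8% were called downward at these ages after 2.4 µM. After 1.3 µM the shares were 0.033%, 0.111% and 0.0165%, and after early sorafenib 0.0247%. The markers of lowest p at C_high were flt1 (-2.08), fli1 (-0.55) and flt4 (-0.82) at 36 hpf, plvapb (-0.87), tie1 (-0.83) and kdrl (-0.81) at 48 hpf, and plvapa (-2.21), tek (-0.96) and flt1 (-0.92) at 96 hpf. Among the erythroid markers gata1a (1.43) and hbbe3 (2.83) rose at 96 hpf after 2.4 µM sorafenib, and hbbe3 (5.06) rose after 50 nM rotenone. Over the 55 libraries hbbe3 ran from 0.0913 to 2567 CPM, with a lowest count of 3. No neuron marker or proliferation gene was called against DMSO, and the neural progenitor genes her4.1 (0.93) and her4.2 (0.59) rose only after 2.4 µM sorafenib at 36 hpf. The part of these cells in the members' values was not tested.

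Finally, the genes whose levels followed dusp6 and egr1 most closely were listed over the 55 libraries, after subtracting the mean of the libraries of the same start and age. These Spearman correlations of log2 CPM are descriptions, since libraries of one group share their treatment and depth differs between libraries. Outside the members, the genes that the symbol table lists, in capitals, as CDKN1B (0.863), JUN (0.809), CHRNA1 (0.797), CCN2 (0.793) and PTGS2 (0.788) ranked first for dusp6. Among the members spry2 (0.776) and spry4 (0.728) were nearest to dusp6, followed by etv4 (0.626) and il17rd (0.621), while dusp5 (0.0514) and etv5b (-0.0117) did not vary with it. For egr1 the nearest genes were klf2b (0.742), ZFP36L2 (0.728), SOX7 (0.725), egr4 (0.701) and ier2b (0.655), and the nearest members il17rd (0.538) and dusp5 (0.504). Among the members the pair of dusp6 with spry2 was the closest, followed by spry2 with etv4 (0.748) and etv5a with etv5b (0.741). Without T16, T37 and T49 the correlation of spry4 with dusp6 was 0.791.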

How the data were processed

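RNA of pooled whole embryos was prepared with a stranded kit. The deposited values are raw counts per gene: per the labels and the study's methods, the authors aligned reads to GRCz11 with HISAT2 2.1.0, kept reads above a mapping quality minimum and counted them with featureCounts 2.0.3, with no normalization. The annotation release and the strand setting are not given in the sources used here, so reads of overlapping genes on opposite strands may not be separated. Paralogs share sequence, and reads that align equally well to both copies, such as etv5a and etv5b, have a low mapping quality and would be dropped.

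Of 57 libraries 55 were used. The 2 that the study omitted were left out: a nearly empty early control, with 13 counts in all, and T51, a late control of 48 hpf with 43644052 counts, which was added back in an alternative. Gene symbols came from a reference table, which named 29201 of 32520 genes and gave some symbols in capitals. It matched 14 of 24 FGF ligands, 4 of 7 receptors, 17 of 30 cascade genes, 13 of 21 further feedback genes, 21 of 31 immediate early genes, 17 of 21 endothelial, 9 of 13 photoreceptor, 6 of 9 muscle, 5 of 8 erythroid, 3 of 6 neuron and 4 of 6 neural progenitor markers and 13 of 14 proliferation genes that were tested. Among the symbols without a match, and so not tested, were fgfr1a, fgfr1b, fgfrl1a, raf1a, raf1b, fgf8a and fgf10a. No gene set test was made.

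Counts were fitted in R 4.3.3 with edgeR 4.0.16 (TMM, filterByExpr by group, glmQLFit and glmQLFTest), with 1 coefficient for each of 18 groups, and 34 comparisons were made. Adjusted p-values are Benjamini-Hochberg over 24246 genes, SE is the size of the log2 fold change over the square root of F, and intervals are 1.96 SE on either side. The replicates are separate pools, so p-values measure the spread between pools, estimated for each gene over all 18 groups. T16, T37 and T49 therefore enter the p-values of comparisons that do not include them. The labels give the early start as 0 hpf in 1 field and as 2 hpf in the treatment protocol.

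The genes named are the 10 members and others by rule: from each pathway list and comparison up to 4 called genes of lowest p were named, from each marker list up to 3, and for dusp6 and egr1 the 5 most correlated genes. The members and lists were chosen with earlier results of these data known. Alternatives were DESeq2 1.42.0, RLE size factors, other low-count filters, a fit of only the groups compared, T51 added back, T16, T37 and T49 left out, each library left out in turn, and a block for the control number. The likeness without T16, T37 and T49 was added after seeing the data. The test was tried on made-up counts with known changes first.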

Additional observations from a re-analysis of the deposited data

Results flagged for a closer look

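In the early sorafenib 2.4 µM group at 96 hpf 1 pool lay far from the other 3 in egr1 and another in etv4. Pool T1 held 78.76 CPM of egr1, whereas the other 3 pools held 37.2 to 39.1 CPM, a gap of 0.955 of the whole range. Pool T2 held 29.81 CPM of etv4, whereas the others held 23.2 to 24.3 CPM, a gap of 0.835 of the range. These were 2 of the 20 sets of 4 pools that could be checked this way, and chance alone gives about 1 in 20.

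The change with 2.4 µM sorafenib at 96 hpf differed between the early and the late start, early minus late, by -0.5074 on the log2 scale for il17rd and by -0.4622 for spry4, by the test of the difference itself. The change with late 2.4 µM sorafenib was more positive at 96 than at 36 hpf by 1.169 for spry1, 1.104 for egr1, 0.7198 for spry4, 0.5905 for etv4 and 0.4268 for il17rd, by the same kind of test. The late sorafenib pools of 96 hpf enter both sets of differences. Among them T66 was nearest to DMSO and T70 farthest from it, except that T69 was nearest in etv4 (33.39 CPM against 35.54 CPM in T66). The differences between ages also rest on the 36 hpf sorafenib pools, which include T16.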

How the results depend on the processing

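The members called were recounted under each alternative, and the counts not given here stayed within 1.5 times the reported ones. A fit of only the groups compared gave 0 for late sorafenib 2.4 µM at 36 hpf (reported 1), 1 for sorafenib 1.3 µM and 1 for 2.4 µM at 48 hpf (0 and 0), 1 for rotenone 25 nM at 36 hpf (0), 7 for DMSO from 36 to 48 hpf (4), 1 for DMSO by start (0), 0 and 0 for the rotenone doses at 36 and 48 hpf (1 and 2), 0 for sorafenib against rotenone at 36 hpf (4) and 1 for the sorafenib change from 36 to 96 hpf (5). Without T16, T37 and T49 the counts were 4 for sorafenib 2.4 µM at 36 hpf, 1 at 48 hpf, 3 and 8 for the sorafenib doses at 36 and 96 hpf (0 and 5), 0 and 4 for the rotenone doses at 36 and 48 hpf, 0 and 8 for sorafenib against rotenone at 36 and 48 hpf (4 and 4), 7 for the sorafenib change by start (2), and 3 and 9 for its change from 36 to 48 and 36 to 96 hpf (0 and 5). For sorafenib 2.4 µM at 36 hpf DESeq2 gave 3, RLE size factors 0, no low-count filter 0 and T51 added back 2. For the rotenone doses at 36 hpf the same 4 gave 2, 2, 0 and 2, and a mean count of at least 10 gave 2. At 48 hpf RLE gave 1 and T51 added back 1. RLE gave 3 for the sorafenib change from 36 to 96 hpf, and T51 added back gave 1 for sorafenib 1.3 µM at 48 hpf.

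With each library left out in turn the counts ran from 0 to 2 for sorafenib 2.4 µM at 36 hpf, 5 to 7 at 96 hpf, 0 to 2 for rotenone 50 nM at 36 hpf, 2 to 3 for DMSO from 36 to 48 hpf, 0 to 1 and 3 to 6 for the sorafenib doses at 36 and 96 hpf, 0 to 4 and 0 to 1 for the rotenone doses at 36 and 48 hpf, 0 to 6 for sorafenib against rotenone at 36 hpf, 0 to 5 for the sorafenib change by start, and 0 to 1 and 2 to 6 for its change from 36 to 48 and 36 to 96 hpf. A DMSO library left alone at 48 hpf was assumed to vary like the other groups.

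A turn of direction was counted only where the value was called as reported or under the alternative. There were 3 such cases, each without T16, T37 and T49. These were spry2 in DMSO from 36 to 96 hpf (0.00 reported, -0.1561), spry2 between the sorafenib doses at 36 hpf (0.06 reported, -0.2039) and etv5a in sorafenib against rotenone at 36 hpf (-0.32 reported, 0.007186). In the first 2 of these the median over all genes tested moved by -0.158 and -0.122 with the TMM factors refitted, and it also moved by -0.114 for sorafenib 2.4 µM at 36 hpf, -0.11 for DMSO from 48 to 96 hpf, and 0.134 and 0.192 for the sorafenib change from 36 to 48 and 36 to 96 hpf. With T51 added back it moved by -0.131 for DMSO from 36 to 96 hpf. The cause of the third was not tested. Of the other values of members, 1236 kept their side of the threshold, 130 lost a call and 99 gained one. Values called in neither fit are among the 1236 whether or not their direction turned. With CPM on total counts 101 of 180 group means moved by more than 1 SD. Over all 180 group means the values on total counts were 0.812 to 1.12 of the reported ones.

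The control numbers in the labels were used as a replicate block for DMSO by start at 96 hpf, which gave 3 calls in place of 0 (spry4, etv5a and egr1). Same-numbered controls did not deviate together in every pair (correlations 0.176, -0.0199 and 0.25 across genes), so the numbers are not taken as pairs. For the other comparisons no paired analysis was possible because the groups compared share fewer than 2 numbers. The members' counts were 74 or more, and DMSO at 48 hpf had 2 pools. How far counting error and the spread between pools each set the precision was not tested.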
